A study of Mus musculus with 20 samples.

Results

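The genes that place, keep and remove methyl groups on cytosine were followed in the diaphragms of mice after fibres had been injected into the pleural cavity. They were chosen by symbol: the DNA methyltransferase genes Dnmt1, Dnmt3a and Dnmt3b, their cofactor gene Dnmt3l, the hemimethylated-DNA reader gene Uhrf1, the dioxygenase genes Tet1, Tet2 and Tet3, and Ezh2, which encodes the histone methyltransferase of Polycomb repressive complex 2 (PRC2). These are 9 of the 34797 gene names on the array, and 18 of its 55681 probes carry one of them. All 9 genes had at least 1 probe that could be tested, and 17 of the 18 probes were tested.

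Total RNA came from the diaphragms of 20 female C57Bl/6 mice, with 4 mice and 4 arrays in each of 5 groups. The mice were 8 weeks old when 100 μL of 0.5% BSA in saline, with or without fibres, was injected into the pleural cavity, and the tissue was taken 12 weeks later. The control group received the BSA vehicle alone, SFA (shortened amosite asbestos, with 3.1% of fibres at least 5 μm long) and LFA (long amosite asbestos, with 100% of fibres at least 5 μm) were given at 25 μg per mouse. The nanotube dose was 5 μg per mouse, with short carbon nanotubes in NTS and long ones in NTL. Comparisons within a material therefore share a dose, whereas asbestos and nanotubes differ in dose as well as in material. Per the study, both asbestos samples were prepared from the same batch of amosite. The short nanotubes were bought and the long ones came from a university laboratory, so that nanotube length and source cannot be told apart. All mice were of 1 sex and strain with no genetic change. Per the study, only part of each diaphragm was frozen for RNA. Each array holds unseparated diaphragm tissue with whatever lesion tissue lay on it, so that more cells of a type and more RNA per cell cannot be told apart. All 10 skeletal muscle markers and all 9 mesothelial markers were well above background on all 20 arrays.

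In mammals, DNMT3A and DNMT3B write new methyl groups on CpG sites, while DNMT1 copies the pattern of the parental strand onto the daughter strand at each round of DNA replication. UHRF1 binds the half-methylated CpG sites that replication leaves and brings DNMT1 to them, and both are made mainly in dividing cells. The TET enzymes oxidize 5-methylcytosine with 2-oxoglutarate as co-substrate, which opens the way to its removal by base excision, and EZH2 methylates lysine 27 of histone H3, the mark of the other main system of stable silencing. In the study these genes bear on the question of how tumor suppressor genes come to be silenced in lesions that precede mesothelioma.

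The promoter windows of Uhrf1, Dnmt1 and Ezh2 are shown because these are the members tied to cell division, and Uhrf1 is the gene on which the comparisons below turn. The windows are those of RefSeq (GRCm38.p6) and run from 250 bases before to 50 bases after an annotated start. Capitals mark letters that match, on either strand, an E2F site (TTTCCCGC, TTTCGCGC, TTTGCCGC or TTTGGCGC), the cell cycle element CHR (TTTGAA), the CCAAT box (CCAAT) or the GC box (GGGCGG), and where matches overlap the capitals run together.
Uhrf1, upstream start, chr17:56303087-56303386, plus strand: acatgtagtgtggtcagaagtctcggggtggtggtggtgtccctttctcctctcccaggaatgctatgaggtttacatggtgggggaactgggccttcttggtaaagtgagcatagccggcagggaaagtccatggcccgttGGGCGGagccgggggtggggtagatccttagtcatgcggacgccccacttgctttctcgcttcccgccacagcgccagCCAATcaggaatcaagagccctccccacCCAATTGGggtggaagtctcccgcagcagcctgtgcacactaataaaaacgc
Uhrf1, downstream start, chr17:56304063-56304362, plus strand: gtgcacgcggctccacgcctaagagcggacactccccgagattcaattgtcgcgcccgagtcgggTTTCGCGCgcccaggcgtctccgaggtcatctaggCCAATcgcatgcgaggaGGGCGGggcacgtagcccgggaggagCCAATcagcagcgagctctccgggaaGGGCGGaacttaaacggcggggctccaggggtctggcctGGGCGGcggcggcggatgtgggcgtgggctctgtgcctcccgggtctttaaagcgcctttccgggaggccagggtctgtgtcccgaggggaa
Ezh2, chr6:47594981-47595280, minus strand: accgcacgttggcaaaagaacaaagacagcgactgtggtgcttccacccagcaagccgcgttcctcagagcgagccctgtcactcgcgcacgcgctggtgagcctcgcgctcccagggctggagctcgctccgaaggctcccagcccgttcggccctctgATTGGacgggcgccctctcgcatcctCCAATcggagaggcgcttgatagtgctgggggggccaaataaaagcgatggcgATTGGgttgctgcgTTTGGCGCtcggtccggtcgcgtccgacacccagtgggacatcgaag
Dnmt1, the most downstream of its 3 starts, chr9:20952574-20952873, minus strand: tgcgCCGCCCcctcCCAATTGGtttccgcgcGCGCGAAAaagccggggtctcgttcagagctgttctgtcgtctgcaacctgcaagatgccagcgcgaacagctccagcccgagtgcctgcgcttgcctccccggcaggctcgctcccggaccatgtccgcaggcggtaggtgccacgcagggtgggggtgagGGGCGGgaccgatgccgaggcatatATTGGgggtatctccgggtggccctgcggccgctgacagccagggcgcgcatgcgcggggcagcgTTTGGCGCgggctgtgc
The downstream Uhrf1 window holds 1 E2F match, the Ezh2 window 1 and the Dnmt1 window 2, whereas the upstream Uhrf1 window and the other 12 of the 16 windows of the 9 genes hold 0. An E2F match occurs in 2.26% of all 32851 promoter windows of this length, a CHR match in 17.9%, a CCAAT match in 37.4% and a GC box match in 35.7%. CCAAT matches number 3 in the upstream and 2 in the downstream Uhrf1 window, 3 in the Ezh2 window and 3 in the Dnmt1 window. In the upstream Uhrf1 and the Dnmt1 window 1 stretch reads as CCAAT on both strands in overlapping letters, and both readings are counted. These are matches of letters and no binding was measured.

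The 60-base probes were placed by the array's maker on NCBI37, and 4 of them are shown. They are the only Dnmt1 probe, the brightest Tet1 and Tet3 probes, and the Uhrf1 probe that was not tested. Whether the place of a probe bears on its values was not tested. Exon and untranslated parts were not annotated here, so positions are given without them.
Dnmt1, the only probe, chr9:20711973-20712341, minus strand, spanning 369 bases and so a splice junction: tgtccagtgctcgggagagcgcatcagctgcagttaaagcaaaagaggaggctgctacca
Tet1, the brightest of 3 probes, chr10:62276042-62276101, minus strand: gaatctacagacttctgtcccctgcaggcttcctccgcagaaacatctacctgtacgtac
Tet3, the brightest of 3 probes, chr6:83319720-83319779, minus strand: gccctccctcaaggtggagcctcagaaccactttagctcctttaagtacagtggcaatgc
Uhrf1, the dim probe, chr17:56451668-56452321, plus strand, spanning 654 bases: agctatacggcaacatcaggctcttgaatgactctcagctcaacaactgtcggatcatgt
The dim Uhrf1 probe was well above background on 0 of the 20 arrays and was not tested, so that all Uhrf1 values below come from the other probe (chr17:56462770-56462829), which was well above background on all 20. Among the other members, Dnmt3a (chr12:3914320-3914379), Dnmt3l (chr10:77526112-77526171) and Ezh2 (chr6:47480307-47480366, minus strand) have 1 probe each, Dnmt3b, Tet1, Tet2 and Tet3 have 3 each, and the brightest probe stands for the gene unless another is named.

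Values are log2 signal, that is the log2 intensity of a probe minus the 75th percentile of its array. A level of 0 is therefore that percentile itself, and levels are compared between arrays and not between probes. A gene was called changed when limma's moderated test, fitted on all 36930 probes that were well above background on at least 4 arrays, gave a Benjamini-Hochberg adjusted p below 0.05 and the difference was at least 2-fold. The arrays had been read on 3 slides, of which only slide 1 held all 5 groups, and the correlation between arrays ran from 0.865 to 0.986. Of the 36930 probes, 3.94% were called in LFA against control and 6.81% in NTL against control. Against these shares, 0 and 1 of the 9 genes were called. Of all probes, 1.16% were called in LFA against SFA and 7.60% in NTL against NTS, and 0 and 1 of the 9 genes were. In SFA against control, NTS against control, LFA against NTL and the long-short difference in asbestos minus that in nanotubes, 0% of all probes and 0 of the 9 genes were called. In these 4 comparisons limma gave an unadjusted p below 0.05 for 843, 1288, 572 and 1273 probes, and for 0 of the 9 genes.

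Uhrf1 was the called gene in both cases, and it was higher after long nanotubes. In NTL its log2 signal was 0.03, 0.20, -0.38 and 0.37 in replicates 1 to 4. In NTS it was -1.26, -1.62, -1.40 and -1.55. Every NTL array lay above every NTS array. Between groups the difference was 1.51 (SE 0.30), or 2.85-fold, with an adjusted p of 0.00347 by limma. Of all probes 7.61% had NTL wholly above NTS and 8.36% wholly below, and of the 17 member probes only that of Uhrf1 was separated in this comparison.

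In control Uhrf1 stood at -1.30, -1.59, -0.17 and -0.79, a wide spread in which replicate 3 reached above the lowest NTL array. NTL exceeded control by 1.02 (SE 0.30), or 2.03-fold, with an adjusted p of 0.0411 by limma. This call was close to its threshold. It was lost when any of 9 single arrays was left out, including control replicates 1, 2 and 4 and NTL replicates 1, 2 and 4, with differences from 0.81 to 1.08 and adjusted p from 0.0521 to 0.129, and the call against NTS was kept in all 20 such fits. With slide as a block, the differences were 0.85 against control (adjusted p = 0.13) and 1.28 against NTS (adjusted p = 0.0633), both in limma. Within slide 1, which held 1 NTL, 2 control and 2 NTS arrays, NTL was 1.47 above control and 1.47 above NTS, and within slide 2 the 3 NTL arrays averaged 0.24 above the single control. The other 2 NTS arrays were on slide 3, so that only slide 1 held both NTL and NTS. Leaving out single arrays does not separate this layout from the groups.

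In LFA Uhrf1 reached -0.80, 0.36, -0.09 and -0.30. In SFA it was -0.63, -0.93, -0.90 and -0.96. Only LFA replicate 1 fell within the SFA range, and the other LFA arrays were higher than every SFA array. The gene was 0.76 (SE 0.30) above control in LFA, with an unadjusted p of 0.0196 and an adjusted p of 0.135 in limma, and 0.65 (SE 0.30) above SFA, with an adjusted p of 0.375. Within slides 1, 2 and 3 LFA exceeded control by 0.65, 0.53 and 0.59, and the difference between LFA and SFA was -0.02 within slide 1 and 1.29 within slide 2. Neither asbestos comparison was called, and the 95% interval against control, 0.14 to 1.38, holds the nanotube value.

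The order of the Uhrf1 group means ran from NTS at -1.46 ± 0.16 (SD, n = 4) through control at -0.97 ± 0.62, SFA at -0.86 ± 0.15 and LFA at -0.21 ± 0.48 to NTL at 0.05 ± 0.33. Neighbours in this order overlapped, as they did for all 36 neighbouring pairs of groups over the 9 genes. SFA differed from control by 0.11 (95% interval -0.51 to 0.73) and NTS by -0.49 (-1.11 to 0.13). LFA and NTL differed by -0.26 (-0.88 to 0.36), and the long-short difference in asbestos minus that in nanotubes was -0.86 (-1.74 to 0.01), with an unadjusted p of 0.0533 and an adjusted p of 1 in limma. For Uhrf1 the span of group means, 1.51, was larger in comparison with its pooled SD within groups, 0.39, than for any other of the 9 genes.

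**Figure D1:**
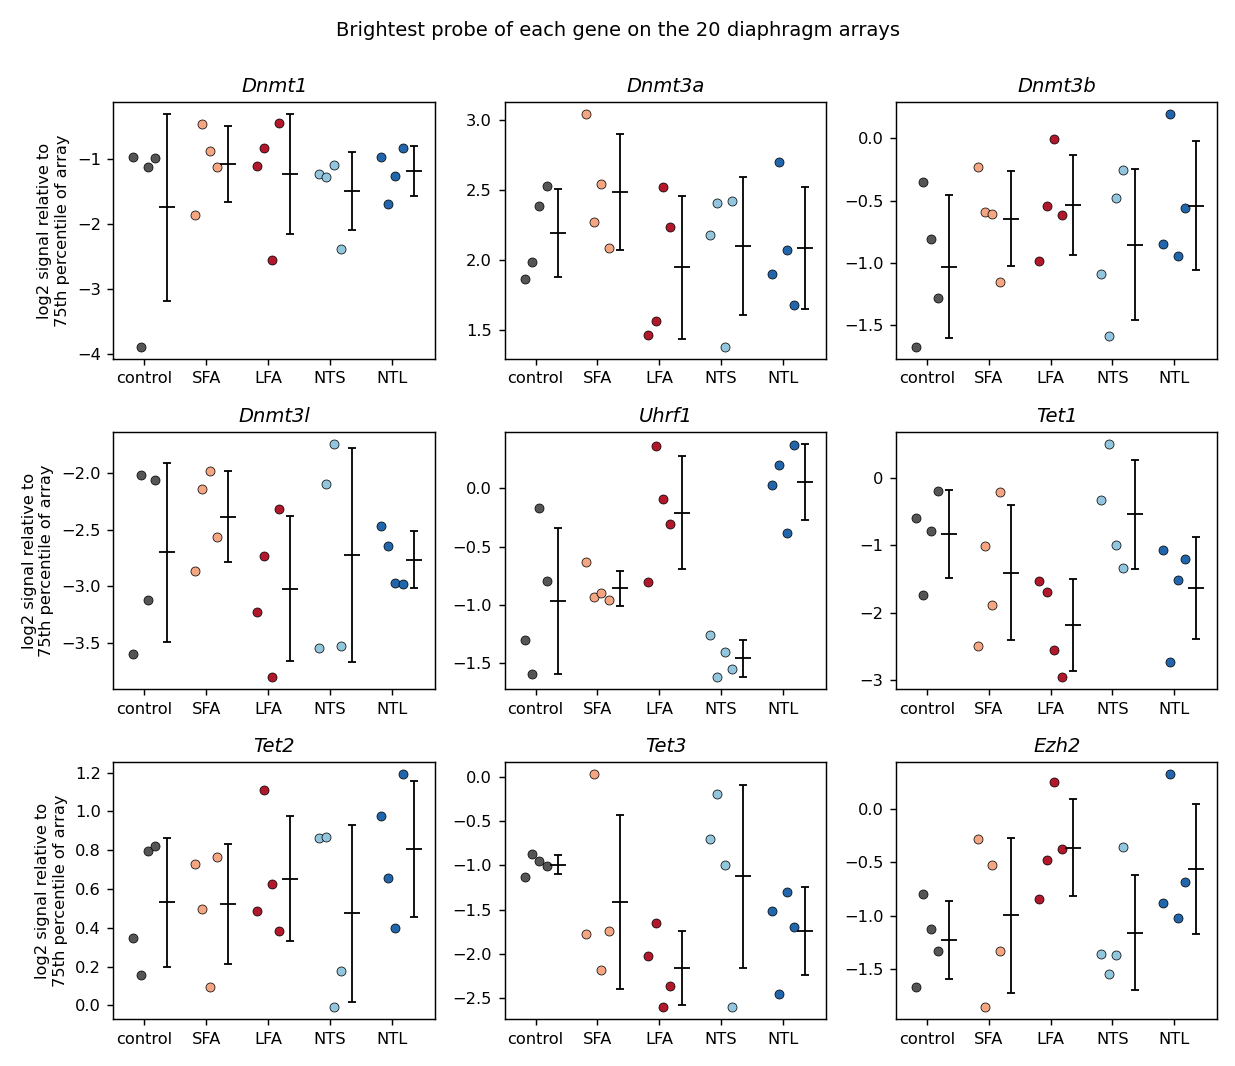
Log2 signal, relative to the 75th percentile of the array, of the brightest probe of each of the 9 genes on the 20 arrays; points are single mice in replicate order, and the bar beside each group is the mean ± SD (n = 4). Uhrf1 is separated between NTL and NTS, Tet3 lies below the control arrays in LFA and NTL, and 1 control array of Dnmt1 lies at -3.89.

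**Figure D2:**
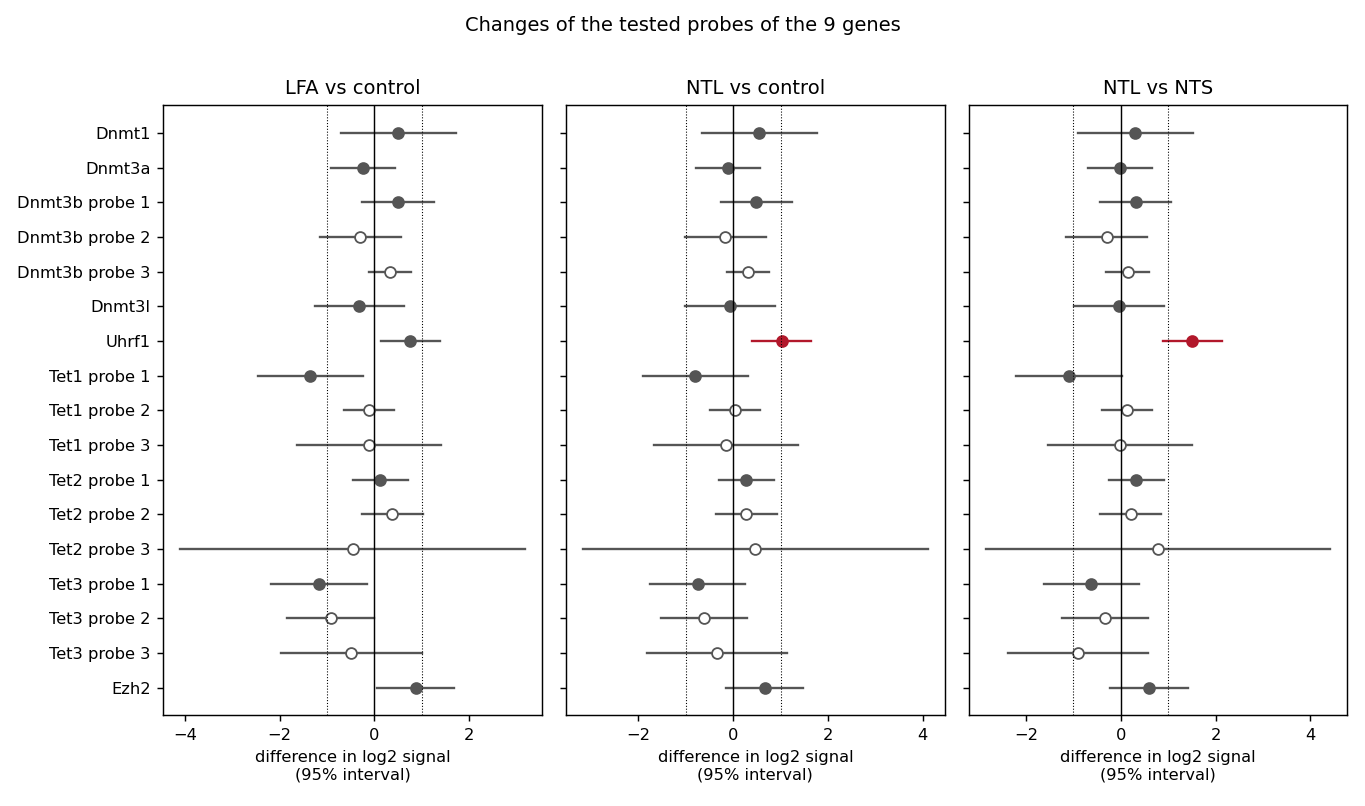
Differences in log2 signal (points) with 95% intervals from the limma fit for the 17 tested probes of the 9 genes in 3 comparisons; filled points are the brightest probe of a gene, red marks a call, and dotted lines mark 2-fold. Only Uhrf1 is called, in NTL against control and against NTS, and the dimmest Tet2 probe (probe 3) has the widest intervals.

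Dnmt1, whose product works with UHRF1 at the replication fork, was not called in any comparison. In control its probe read -0.98, -3.89, -1.14 and -0.98. In NTL it read -0.98, -1.70, -1.27 and -0.83. Apart from control replicate 2 the arrays of both groups lay in 1 range, and the difference of 0.55 (SE 0.58) came with a 95% interval of -0.66 to 1.76. In LFA it stood at -1.12, -0.84, -2.56 and -0.45, a difference from control of 0.51 (SE 0.58). In a fit without the 5 arrays described next these differences were 0.01 (SE 0.23) for NTL and 0.23 (SE 0.23) for LFA, and with the index described next as a covariate 0.776 (SE 0.38) and 0.997 (SE 0.40).

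Several low values of the members fell on the same arrays. For each array a 5′ to 3′ index was formed over 1616 transcripts with a pair of probes at least 1000 bases apart. This distance was read on the genome, introns included, and can be shorter in the RNA. The index is the mean of the log2 signal of the 5′ probe minus that of the 3′ probe, relative to the mean of all arrays. Group means of the index were not alike, at 0.10 in control, -0.14 in SFA, -0.15 in LFA, 0.20 in NTS and -0.01 in NTL. The index was lowest in SFA replicate 1 (-0.55), LFA replicate 3 (-0.50), control replicate 2 (-0.46), NTL replicate 2 (-0.44) and NTS replicate 4 (-0.33), 1 array of each group, and highest in NTS replicate 2 (0.44). On these 5 arrays Dnmt1 ran from -3.89 to -1.70, below all the other 15 (-1.28 to -0.45). The dimmest Tet2 probe (chr3:133126905-133126964, minus strand), whose start lies 154 bases from that of the brightest Tet2 probe, read -7.65 to -5.30 on them and was not well above background there, against -3.23 to -0.48 elsewhere. Ezh2 averaged 0.92 higher on the 5 arrays than on the rest and the brightest Dnmt3b probe 0.79 higher, whereas Uhrf1 differed by -0.06. The other Dnmt3b probes differed by -0.95 and 0.05. The brightest Tet1 probe differed by -1.13 and the brightest Tet3 probe by -0.77. The part of RNA quality in these values was not tested.

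**Figure D3:**
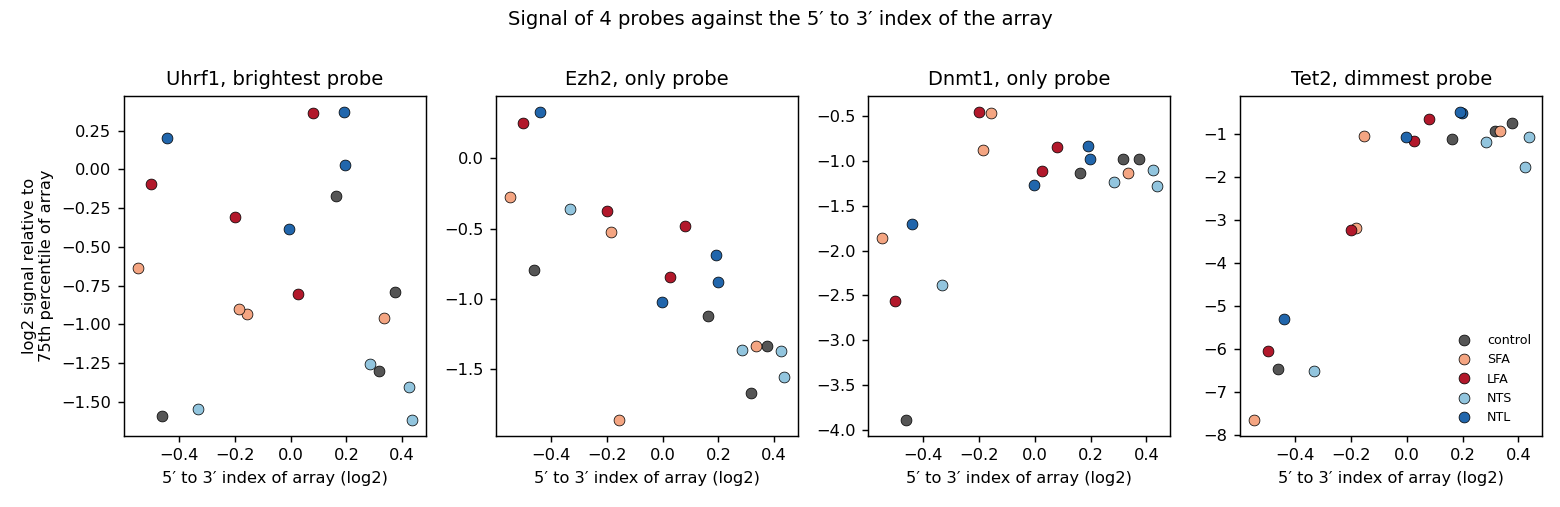
Log2 signal of 4 probes (vertical axis, relative to the 75th percentile of the array) against the 5′ to 3′ index of the array (horizontal axis, log2), 1 point per mouse. Dnmt1 and the dimmest Tet2 probe drop on the 5 arrays with the lowest index, Ezh2 is high on most of them, and Uhrf1 shows no such drop.

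The writers of new methylation were not called in any comparison. Dnmt3a read 1.87, 1.99, 2.39 and 2.53 in control. It read 1.47, 1.56, 2.52 and 2.24 in LFA and 1.90, 2.70, 2.07 and 1.68 in NTL. The ranges overlapped throughout, and the differences of -0.24 in LFA (95% interval -0.92 to 0.43) and -0.10 in NTL (-0.78 to 0.57) leave room for less than a 2-fold change in either direction. The brightest Dnmt3b probe (chr2:153513403-153513462) was 0.49 above control in LFA (-0.26 to 1.25) and 0.49 in NTL (-0.26 to 1.24), another probe 0.32 and 0.31 above, and the one that lies 5′ to both (chr2:153512098-153512157), -0.30 and -0.17 from control, so that its probes did not share a direction. Dnmt3l, whose product stimulates DNMT3A and DNMT3B in germ cells, was dim but above background on all arrays and differed by -0.32 and -0.06, with adjusted p of 0.685 and 0.954 in limma.

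No TET gene was called in any comparison, and the values of Tet3 and Tet1 were lower on average after long fibres. Tet3 read -1.13, -0.87, -0.95 and -1.004 in control. It read -2.03, -1.65, -2.61 and -2.36 in LFA and -1.52, -2.45, -1.30 and -1.70 in NTL. All 8 arrays of the long fibres lay below all 4 control arrays, which lay close together (SD 0.11). The difference from control was -1.17 (SE 0.48, adjusted p = 0.151) in LFA and -0.75 (SE 0.48, adjusted p = 0.366) in NTL, both in limma. SFA replicates 1, 3 and 4 at -1.77, -2.18 and -1.74 and NTS replicate 4 at -2.60 were as low. LFA replicate 3 and NTL replicate 2, the lowest of their groups, were among the 5 arrays with the lowest 5′ to 3′ index. Control replicate 2, the highest control array, was also among them. Of all probes, 11.6% had LFA wholly below control and 13.8% had NTL wholly below, against 1 of the 17 member probes in each case, and 4.60% and 6.34% were wholly above, against 0. Another Tet3 probe (chr6:83352743-83352802, minus strand), 5′ of the first, differed by -0.92 in LFA (95% interval -1.84 to -0.01) and -0.62 in NTL, and the other was well above background on only 8 arrays.

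Tet1 depended on the probe. Its brightest probe read -0.60, -1.73, -0.80 and -0.19 in control. It read -1.53, -1.69, -2.56 and -2.95 in LFA, where the group sat below control except for 1 control array. The difference was -1.35 (SE 0.53, adjusted p = 0.136 by limma), and in NTL -0.80 (SE 0.53). The other Tet1 probes, one further 3′ (chr10:62274448-62274507) and one in the 5′ part (chr10:62301856-62301915), differed by -0.12 and -0.11 in LFA and by 0.03 and -0.15 in NTL. Tet2 was 0.12 above control in LFA (95% interval -0.46 to 0.70) and 0.27 in NTL (-0.30 to 0.85) by its brightest probe (chr3:133126751-133126810), and a probe 5′ of it (chr3:133176421-133176479) gave 0.38 and 0.27.

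Ezh2 was higher after long fibres on average, again short of a call. In control it read -1.67, -0.79, -1.12 and -1.33. It read -0.84, -0.48, 0.25 and -0.37 in LFA and -0.88, 0.33, -1.02 and -0.69 in NTL. Control replicate 2, the highest control array, lay just above the lowest LFA array, and LFA replicate 3 and NTL replicate 2, the highest of their groups, were among the 5 arrays with the lowest 5′ to 3′ index. The differences were 0.87 (SE 0.39, adjusted p = 0.185) and 0.67 (SE 0.39, adjusted p = 0.319) in limma. With the index as a covariate they were 0.55 (SE 0.27) and 0.52 (SE 0.26).

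In LFA against control 4 of the 9 genes (Uhrf1, Tet1, Tet3 and Ezh2) had an unadjusted p below 0.05, and 5 of the 17 probes did, where 23.9% of all probes did. In NTL against control this held for 1 of the 17 probes, against 23.5% of all probes, and in NTL against NTS for 1, against 25.1%. The median difference of the 9 genes was 0.12 in LFA and 0.27 in NTL, where the median over all probes was -0.28 and -0.25.

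The 3 genes whose log2 signal followed each member most closely over the 20 arrays were sought among 14828 genes with a symbol. For Uhrf1 they were Plk1, a kinase of mitosis (r = 0.94), Arhgap4 (r = 0.94) and Mcm5, a subunit of the replicative helicase (r = 0.92). After the group means had been subtracted these correlations were 0.81, 0.82 and 0.71. For Ezh2 they were Crlf3, Helb and Uggt1 (r = 0.94 each), for Dnmt1 Klf6, Sf3b1 and Hnrnpf (r = 0.93 to 0.94) and for Tet3 March9, Foxi1 and Adam11 (r = 0.95 to 0.96), and these held within groups at 0.91 to 0.98. Tet1 followed Ksr1, Pm20d2 and Ptpn3 (r = 0.92 to 0.93), Dnmt3b followed Cenpo, Ipcef1 and Pi4ka (0.90 to 0.92), Dnmt3a followed Tbc1d4, Reep1 and Wdr47 (0.86 to 0.88) and Tet2 followed Prrc2c, Iffo1 and Phf19 (0.82 to 0.85). Dnmt3l had no close neighbour, the highest being Syt8, Olfr1262 and Mogat2 (0.67 to 0.71). The points of these correlations share slides and RNA quality, and the genes were picked for the correlation.

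Genes of mitosis were higher in the groups in which Uhrf1 was highest. Of 11 mitosis genes tested, 7 were called higher in LFA and 7 in NTL against control, with median differences of 1.49 and 1.70, and 9 were called higher in NTL against NTS with a median of 2.06. Plk1 was 1.49 (SE 0.34) higher in LFA and 1.75 (SE 0.34) higher in NTL. It was picked above for following Uhrf1 over these same arrays, so its differences are not separate from that choice. Of 14 S phase genes, 0 were called in LFA, 1 in NTL (Cdc6, a licensing factor, 1.29, SE 0.29) and 4 in NTL against NTS (Cdc6, Rrm2, Mcm5 and Mcm3, by 1.05 to 1.48), and their medians were 0.51, 0.64 and 0.77. The summed linear signal of the mitosis genes ran from 2.56 to 8.51 in control, 4.75 to 8.81 in SFA, 9.36 to 19.1 in LFA, 2.55 to 4.07 in NTS and 7.23 to 18.5 in NTL. By the median of this sum the groups ran NTS, control, SFA, NTL and LFA, and by mean Uhrf1 signal NTS, control, SFA, LFA and NTL.

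Markers of other cells moved in the same samples. Of 10 macrophage markers 7 were called higher in LFA and 7 in NTL, with a summed signal of 79.1 to 117 in control, 89.0 to 143 in SFA, 145 to 260 in LFA, 80.2 to 139 in NTS and 221 to 288 in NTL. For B and plasma cells 3 of 8 were called in each, with 30.0 to 62.3 in control, 32.1 to 89.5 in SFA, 170 to 237 in LFA, 13.9 to 49.0 in NTS and 210 to 349 in NTL. For fibroblasts 2 and 5 of 8 were called higher, and for skeletal muscle 2 and 4 of 10, and for adipocytes 1 and 4 of 7, lower. T cell (7), granulocyte (8) and mesothelial (9) markers had 0 calls in both. The part of these cells in the Uhrf1 result was not tested.

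Around the members, 70 partner genes in 6 lists were read, all 70 with a tested probe. In LFA against control 3 were called and in NTL against control 6, against 3.94% and 6.81% of all probes, and the medians over the 70 were -0.02 and -0.02. In NTL against NTS 2 were called, Dppa3 and Cdca7l, which in NTS were well above background on 1 of 4 and 0 of 4 arrays, so that no size is given. Both genes passed the filter on dim probes only through LFA and NTL arrays. Their calls, also those within the counts against control, are therefore no test of a rise.

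Among 15 cofactors and recruiters of the methyltransferases, 1 was called higher in LFA and 3 in NTL, with medians of 0.01 and 0.07. Dppa3, whose product in oocytes and zygotes keeps UHRF1 off chromatin, was well above background on 0 of 4 control arrays and on 3 of 4 in both LFA and NTL. Limma counted it as called in LFA and in NTL, on readings as they are, with control below background. In SFA and NTS it was above background on 1 of 4 arrays each. It thus reached the 4 arrays needed for testing only through LFA and NTL, and these calls are no test of a rise there. For a ratio, each control array was set at the lowest signal its own scan called well above background. Its level was then 2.62-fold that of control in LFA and 2.85-fold in NTL. Not every LFA and NTL array was above background and their readings were used as they are. These ratios are therefore no strict bounds, and they were not tested. Hells, a chromatin remodeller needed for methylation of repeats, ran from -5.46 to -3.91 in the control arrays, with -3.48 to -2.45 for LFA and -3.38 to -1.91 for NTL, so that both long-fibre groups were wholly above control. It was called in NTL (1.76, SE 0.49, adjusted p = 0.0345) and not in LFA (1.58, SE 0.49, adjusted p = 0.069). Cdca7l, a relative of the HELLS partner gene Cdca7, was counted as called in NTL by limma on readings as they are. It was above background on 0 of 4 arrays in control, SFA and NTS, so it too was tested only through LFA and NTL. With control set as for Dppa3 its level in NTL was 1.17-fold that of control, which is no strict bound and was not tested.

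Of 12 genes of active demethylation and base excision, 1 was called higher and 1 lower in both LFA and NTL, with medians of -0.39 and -0.38. Apobec1, a cytidine deaminase best known for editing RNA, rose by 1.59 (SE 0.36) in LFA and 1.62 (SE 0.36) in NTL. Gadd45g, a stress-induced gene of a family that has been tied to demethylation, fell by 1.21 (SE 0.27) and 1.58 (SE 0.27). Its signal of 4.69 to 5.48 in control lay above that of every other group, with SFA at 3.73 to 4.49, LFA at 3.10 to 4.22, NTS at 3.99 to 4.37 and NTL at 3.15 to 3.73. In the 9 genes of the TET co-substrate and of TET partners, only Idh3a, a subunit of mitochondrial isocitrate dehydrogenase, was called, lower in NTL (-1.21, SE 0.32, adjusted p = 0.0266), and the medians were -0.79 in LFA and -0.12 in NTL. Skeletal muscle markers fell in the same groups, as given above.

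The other lists had 0 calls in LFA and NTL against control. The 9 methyl-CpG readers differed from control by -0.60 to 0.33 (LFA) and -0.85 to 1.01 (NTL), and the 12 PRC2 partners and demethylases of H3K27 from -0.28 to 0.42 and from -0.50 to 0.16. These differences stand beside the 0.87 and 0.67 of Ezh2. The 13 genes of the methyl donor cycle ranged from -0.58 to 2.76 and from -0.56 to 2.59. Some of them are made chiefly in liver, and the summed signal of 7 liver genes ran from 5.37 to 4991 over the 20 arrays, with wide spread in every group.

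**Figure D4:**
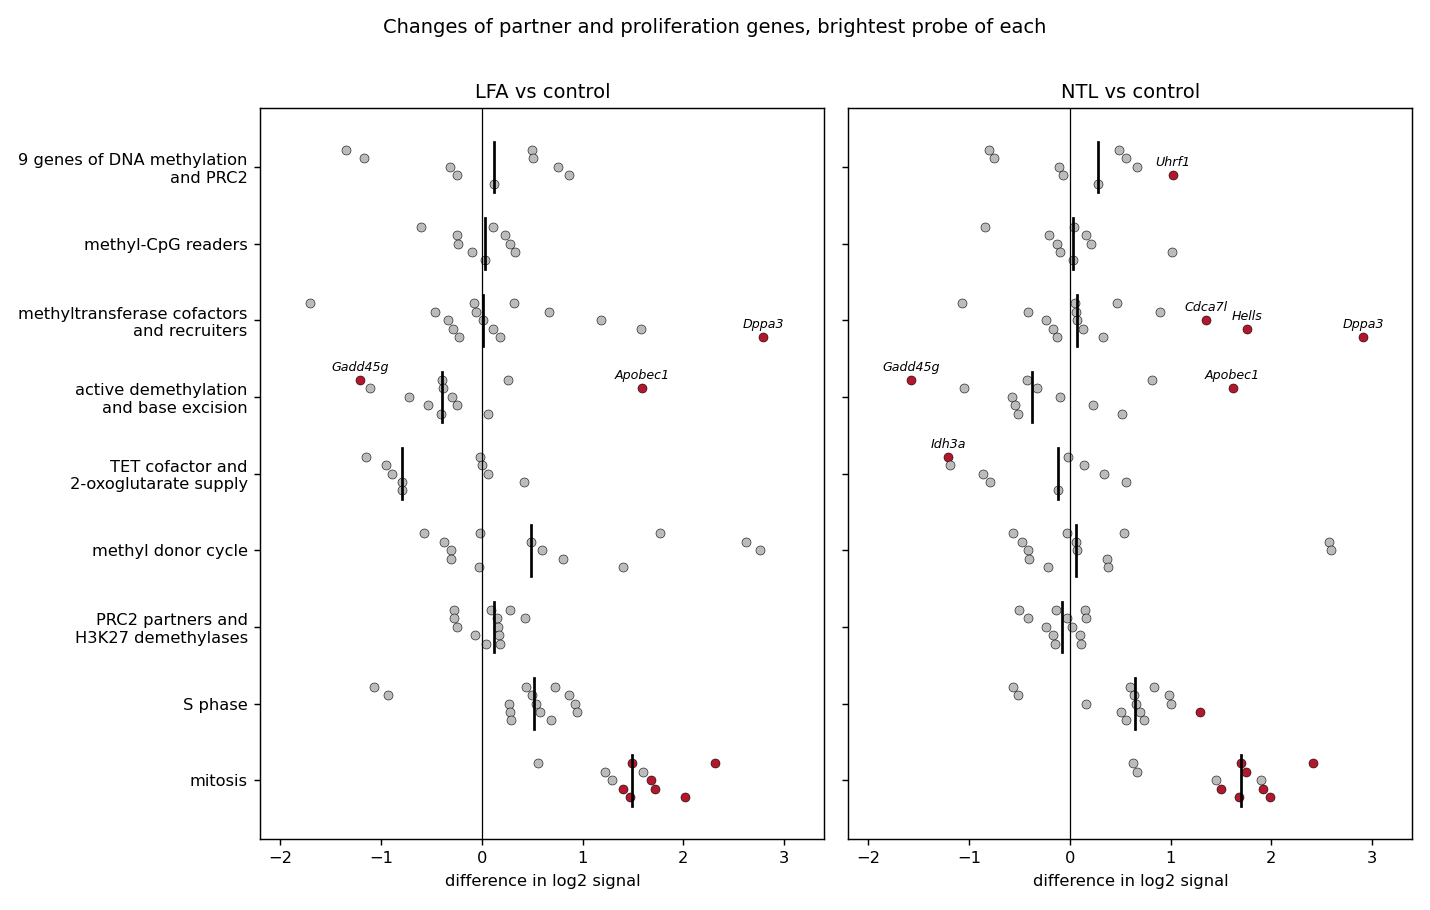
Differences in log2 signal from control in LFA (left) and NTL (right) for the brightest probe of each gene, by list; red points are called, and the black bar is the median of the list. Medians of the partner lists lie between -0.79 and 0.49 (LFA) and between -0.38 and 0.07 (NTL), with few calls, whereas all 11 tested mitosis genes lie above 0.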

How the data were processed

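The members and all gene lists were chosen with earlier results of these data known. Per the labels, RNA was labelled with Cy3 and hybridized to 1-colour Agilent arrays, and the deposited intensity of each spot was background-subtracted by Agilent Feature Extraction 10.7.3.1. The authors also deposited log2 values normalized in GeneSpring, 1 per group and probe, which served as an alternative for differences only. Groups were taken from the labels. Outlier spots by Feature Extraction's own marks, 92 to 204 on an array, were dropped, the remaining spots of a probe were averaged, and the array's own 75th percentile was subtracted from its log2 intensities. No spot was saturated, and 53.0% to 68.1% of spots per array were well above background; the number of arrays limits the precision. A probe was tested when well above background on at least 4 arrays, and the brightest tested probe stood for a gene. All 20 arrays entered 1 limma fit (limma 3.58.1, R 4.3.3) with group means, without the replicate block, and Benjamini-Hochberg adjustment ran over 36930 probes. The pipeline was tested on simulated data. Named genes were all members, at most 4 called genes per partner list with the largest differences, and the 3 genes most correlated with each member. The sources give 4 animals per group and housing in groups without saying which animals shared a cage, so p-values measure the spread between these samples. Alternatives were quantile normalization, normexp background correction with an offset of 50, filters on dim probes, the mean of a gene's probes, the authors' table, slide and replicate blocks, only the groups compared, leaving out arrays, no minimum fold and the methods' unequal-variance test. Partner genes in LFA against SFA are not reported here. The index as a covariate and leaving out the 5 arrays were chosen after seeing the data.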

Additional observations from a re-analysis of the deposited data

Results flagged for a closer look

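Among 90 sets of 4 arrays (18 member probes in 5 groups), 10 held an array that stood far from the other 3 by Dixon's ratio (chance alone gives about 1 set in 20). Dnmt1 read -3.89 in control replicate 2 (others -1.14 to -0.98) and -2.38 in NTS replicate 4 (others -1.28 to -1.10). The dimmest Tet2 probe read -6.46 in control replicate 2 (others -1.12 to -0.75), -6.51 in NTS replicate 4 (others -1.76 to -1.07) and -5.30 in NTL replicate 2 (others -1.06 to -0.48). In control replicate 2 a Dnmt3b probe read -3.24 (others -1.74 to -1.58) and the 5′ Tet1 probe -6.34 (others -3.54 to -2.99). Ezh2 read -0.36 in NTS replicate 4 (others -1.55 to -1.36). These 8 values lie on the 3 arrays of these groups with the lowest 5′ to 3′ index. The remaining 2 were a 3′ Tet1 probe at -2.46 in LFA replicate 1 (others -2.05 to -1.98) and a Tet2 probe at -2.04 in SFA replicate 3 (others -2.39 to -2.35). The cause was not tested.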

How the results depend on the processing

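The Uhrf1 call in NTL against control (1 member gene) became 0 under normexp, no filter, slide as a block, the replicate block, only the groups compared and without the 5 arrays of lowest index, where its difference was 0.85, 1.02, 0.85, 1.02, 1.02 and 0.76; the call in NTL against NTS became 0 only with slide as a block. Other member counts kept their values. Without single arrays the NTL count ran from 0 to 1, and Uhrf1's difference was 0.91, 0.81 and 1.08 without control replicates 1, 2 and 4, 1.03, 0.97 and 0.91 without NTL replicates 1, 2 and 4, and 1.02 without SFA replicate 3, SFA replicate 4 or LFA replicate 4. Partner genes called in LFA (3) became 1 with only the groups compared and 6 with the index as a covariate, and ran from 0 (without control replicate 4) to 4; they were 1 without control replicate 1 or 2 or LFA replicate 1, 2 or 4. Those in NTL (6) became 3 under normexp and with only probes above background on all arrays, and ran from 2 (without NTL replicate 1) to 6; they were 3 without control replicate 2 or NTL replicate 2 or 4. Quantile normalization gave a median over all probes of -0.11 in LFA (-0.28 otherwise) and -0.11 in NTL (-0.25 otherwise), and changed no call of a member; over all probes the calls were 821 higher and 634 lower in LFA and 1340 and 1174 in NTL, and with it 932 and 363, and 1505 and 663. No called difference changed sign. Replicate numbers name samples only: deviations of same-numbered arrays correlated at a median of -0.09 over 40 pairs (-0.01 over 120 others). The authors' table holds group values and gave no counts. The methods' test, which held 3 of the 9 members (Uhrf1, Tet1 and Tet3), called 1 in NTL (Uhrf1) and 0 in LFA after adjustment, and 1 in each without it. The 1 in LFA was not Uhrf1, which was below 2-fold there (0.76), but Tet1 or Tet3, both lower. Of the 10942 probes in this test, 2409 were called in NTL and 2074 in LFA after adjustment, and 3782 and 3363 without it. In this test a probe has 1 p over all 5 groups, and only the 2-fold limit is read for the named group against control. In SFA and NTS it counted 180 and 194 probes after adjustment. That p can come from differences among the other groups, so these counts do not show a change in SFA or NTS. The cause of the other shifts was not tested.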
